A study of Mus musculus with 2 samples.

Results

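Collagen chains were followed in embryonic skin of C57BL/6 mice at E15.5 (E for embryonic day), by RNA sequencing of lymphatic endothelial cells (LECs) in 2 libraries. The control library was labelled wild type. The other was labelled Dot1l knockout and is called the knockout-labelled library throughout. The labels describe its deletion as endothelial, and no Cre line is named in the sources used here. They also carry a protocol for cultured dermal LECs, and it is not stated whether the sequenced cells had been in culture. Dot1l encodes the methyltransferase of lysine 79 on histone H3. Each library was made from RNA pooled over 2 to 3 biological replicates, so there is 1 library per genotype, no spread between embryos can be had, and no test or p-value is given. The chains were chosen by name: every listed gene symbol made of Col, a type number, a and a chain number was a member. This gave 44 genes of 24319, of which 11 encode fibrillar chains (types 1, 2, 3, 5, 11, 24 and 27), 8 encode chains of basement membranes (types 4, 15 and 18) and 25 encode other chains. Col4a3bp, whose symbol begins alike but which encodes a ceramide transfer protein, was not a member.

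Collagens are proteins whose chains wind in groups into a helix, which needs glycine at regular steps along each chain. Fibrillar collagens are secreted with propeptides, trimmed outside the cell and packed into the fibrils that give dermis its strength. Type IV collagen instead forms the sheet-like network under endothelium and epithelium, where types XV and XVIII are also found. Fibroblasts are the main makers of fibrillar collagen in skin, while endothelial cells and pericytes make type IV collagen, and lymphatic capillaries are known for a thin, discontinuous basement membrane.

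Values are FPKM, the number of fragments scaled to transcript length and to sequencing depth. This is a level per length, so that levels of different chains may be set side by side. A difference is that of log2(FPKM + 1), the knockout-labelled library minus control, and genes past 2-fold on that scale were counted. The count took in genes that reached 1 FPKM in either library or both. On that scale a gene of low value appears less changed than its ratio. A fold given for 1 gene is the plain ratio of its FPKM in the deposited lists. All FPKM added up to 415537 for control and 530294 for the knockout-labelled library, and Dot1l itself was 5.86 and 10.4 FPKM, a value that covers the whole gene and does not check the label. Whole-fragment steps in the low values put the depths near 10200000 and 9080000 fragments, provided the values were not scaled again. Intervals given below are 95% intervals of a fold from fragment numbers estimated at these depths. They cover counting error only, not the spread between embryos. Of 8 lymphatic endothelial markers, all were at 1 FPKM or more in both libraries, and 7 were at least 2-fold lower in the knockout-labelled library. Prox1 was at 59.3 and 13.1 FPKM and Lyve1 at 526 and 552 FPKM. The same level was reached in both libraries by 9 of 10 fibroblast, 9 of 10 pericyte and smooth muscle and 7 of 8 keratinocyte markers. Reaching that level therefore does not verify the cell label of either library.

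Nearly every collagen chain had a lower value in the knockout-labelled library. Of the 44 members, 41 had a lower value there, 1 a higher value (Col11a2) and 2 were listed at 0 in both libraries. At least 2-fold lower were 27 members and at least 2-fold higher none. Over the 13261 other genes that reached 1 FPKM, 15.3% were lower by at least 2-fold and 16.8% higher by at least 2-fold. The minimum was reached by 35 members, 27 of them in both libraries and 8 in the control library alone, and those 8 had to have a lower value in the other library. The median difference was -1.50 over all 44 members and -1.65 over the 35, beside 0.00 for all 13296 genes. Summed over the 44 members, collagen FPKM was 4218 in the control library and 1234 in the knockout-labelled library, 3.42-fold lower, and its share of all FPKM was 1.02% and 0.233%. In bulk samples, fewer cells of a type and less RNA per cell cannot be told apart.

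**Figure D1:**
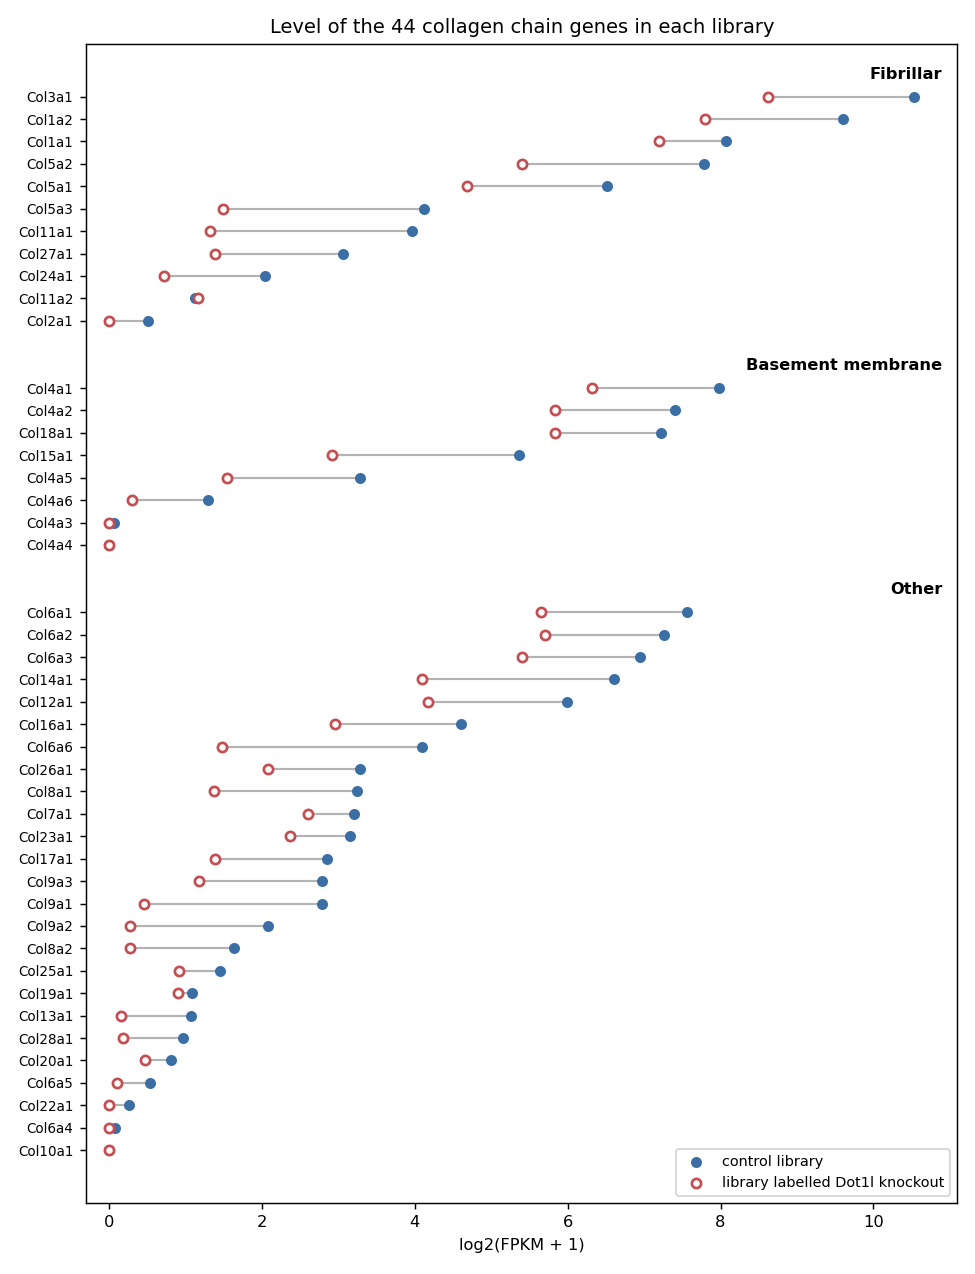
Level of each of the 44 collagen chains as log2(FPKM + 1) on the horizontal axis, in the control library (filled points) and the knockout-labelled library (open points), with a grey line joining them and 1 library per point. The open point lies to the left of the filled point for 41 chains and to the right only for Col11a2, while Col4a4 and Col10a1 are at 0 in both.

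**Figure D2:**
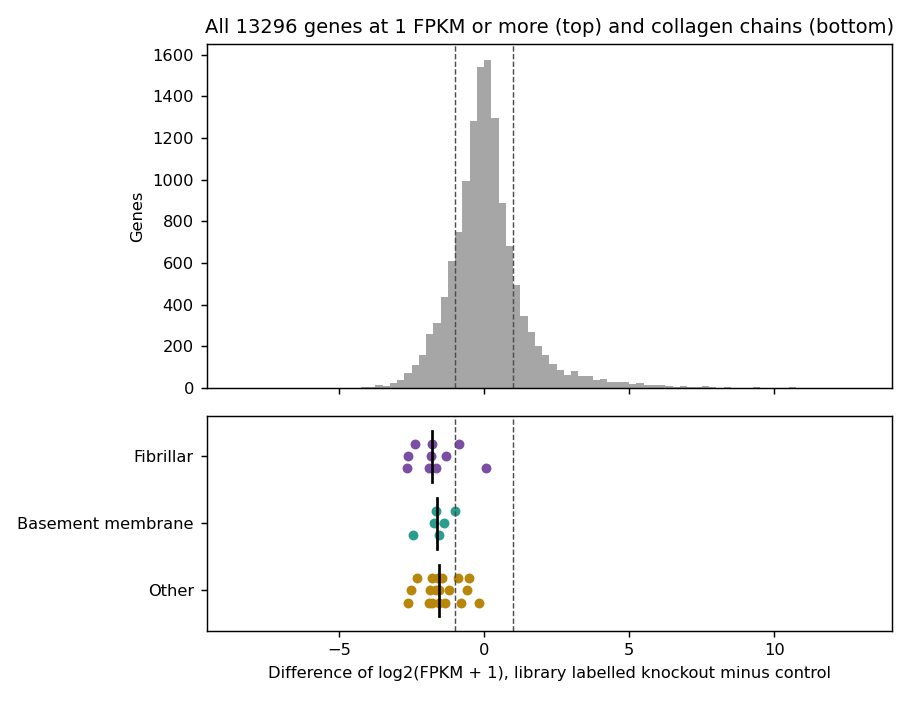
Difference of log2(FPKM + 1), knockout-labelled library minus control, as a histogram over the 13296 genes at 1 FPKM or more (top) and as points for the 35 collagen chains at that level (bottom), with medians as vertical bars and 2-fold as dashed lines. The 27 chains at least 2-fold lower lie left of the left dashed line, and none lies right of the right one.

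Stretches before the annotated starts of 4 chains are shown, and these chains were chosen by their values in these data. Col3a1 had the highest level of all chains, Col11a1 and Col5a3 the most negative differences of the fibrillar chains, and Col15a1 that of the basement membrane chains. Each is the 250 bases before the RefSeq start on build GRCm38.p6, 5′ to 3′ on the gene's strand. In capitals are matches on either strand to 3 short words. The TATA box was searched as TATAAA or its reverse complement TTTATA. The CCAAT box was searched as CCAAT or its reverse complement ATTGG. The GC box, bound by Sp1, was searched as GGGCGG or its reverse complement CCGCCC.
Col3a1 (chr1:45311288-45311537, plus strand): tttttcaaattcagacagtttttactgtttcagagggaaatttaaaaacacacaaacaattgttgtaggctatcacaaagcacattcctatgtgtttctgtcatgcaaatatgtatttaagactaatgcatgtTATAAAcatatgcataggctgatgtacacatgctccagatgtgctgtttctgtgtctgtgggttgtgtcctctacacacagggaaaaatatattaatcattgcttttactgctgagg
Col11a1 (chr3:114030290-114030539, plus strand): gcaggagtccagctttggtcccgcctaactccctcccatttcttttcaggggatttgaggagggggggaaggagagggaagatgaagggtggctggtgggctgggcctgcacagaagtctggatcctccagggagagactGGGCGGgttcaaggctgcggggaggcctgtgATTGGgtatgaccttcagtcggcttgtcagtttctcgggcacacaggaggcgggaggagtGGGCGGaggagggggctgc
Col5a3 (chr9:20815068-20815317, minus strand): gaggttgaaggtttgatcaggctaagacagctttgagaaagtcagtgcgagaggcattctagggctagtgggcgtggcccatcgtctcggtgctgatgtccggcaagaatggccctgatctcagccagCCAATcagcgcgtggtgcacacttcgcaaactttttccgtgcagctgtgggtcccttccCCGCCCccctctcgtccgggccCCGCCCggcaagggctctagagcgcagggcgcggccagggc
Col15a1 (chr4:47207762-47208011, plus strand): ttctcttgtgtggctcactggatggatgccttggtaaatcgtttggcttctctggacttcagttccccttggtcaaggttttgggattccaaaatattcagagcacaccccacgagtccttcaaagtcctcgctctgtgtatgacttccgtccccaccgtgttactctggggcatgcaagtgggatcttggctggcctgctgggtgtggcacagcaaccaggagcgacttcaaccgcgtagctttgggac

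These stretches differed in base composition and in the words they hold, although all 4 genes were lower. Col3a1 had 35.2% G and C and held the word of the TATA box, at position -117 relative to the start, but neither other word. Col11a1 and Col5a3 had 62.4% and 62.8% G and C, and each held 2 GC boxes and 1 CCAAT box. Col15a1 held none of these words. Over the 38 windows that matched 35 of the 44 members, 22 held a GC box (57.9%), 13 a CCAAT box (34.2%) and 5 a TATA box (13.2%). Over all 32851 windows of the same length the shares were 32.7%, 33.8% and 12.4%. A match is a description of letters only.

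Fibrillar chains were the most abundant collagens in both libraries, and 8 of their 11 members were at least 2-fold lower in the knockout-labelled library. Their median difference was -1.80 over all 11 and -1.81 over the 10 members at 1 FPKM or more. Col3a1, the chain of type III collagen, which is plentiful in fetal skin, was the highest of all 44 in both libraries, at 1481 FPKM in control and 391 in the knockout-labelled library, 3.79-fold lower (interval 3.73 to 3.85). The chains of type I collagen, the main fibril of skin and bone, did not differ to the same extent. Col1a2 was 774 and 222 FPKM, 3.49-fold lower (interval 3.41 to 3.57). Col1a1 was 268 and 145 FPKM, 1.85-fold lower (interval 1.80 to 1.90), a difference of -0.88 that did not reach 2-fold but did, at -1.23 and -1.01, when rescaled to the same sum or the same upper quartile. The intervals of these 2 chains do not overlap, and the level of Col1a2 was 2.89 times that of Col1a1 in control and 1.53 times in the other library. A ratio of chains within a library does not change with the scaling between libraries.

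Type V and type XI collagens, which nucleate fibrils and limit their width, had some of the most negative differences. All 3 chains of type V were at least 2-fold lower. Col5a2 was 219 and 41.4 FPKM, 5.30-fold lower, and its partner Col5a1 was 90.7 and 24.8 FPKM, 3.66-fold lower. Col5a3, whose start region is shown above, was 16.4 and 1.81 FPKM, 9.11-fold lower (interval 7.39 to 11.3). The sum of the 3 chains was 7.74% of collagen FPKM in control and 5.50% in the knockout-labelled library. Col11a1, known best from cartilage, was 14.7 and 1.5 FPKM, 9.76-fold lower (interval 7.96 to 12.1). By contrast Col11a2, which joins Col11a1 in type XI collagen, was 1.17 and 1.24 FPKM, and its interval for the fold of control over the other library ran from 0.662 to 1.34. It was the only member with a higher value, and it turned slightly lower, to -0.19 and -0.02, when the libraries were rescaled to the same sum or to the same upper quartile.

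The remaining fibrillar chains were at low levels. Col27a1, a chain best known from cartilage, was 7.37 and 1.62 FPKM, and Col24a1 was 3.13 and 0.641 FPKM. Col2a1, the main collagen of cartilage, was 0.429 FPKM in control, about 21.5 fragments, and was listed at 0 in the knockout-labelled library. Of 8 chondrocyte markers that are not collagens, 6 reached 1 FPKM, 4 of them in control alone and 1 in the knockout-labelled library alone. By at least 2-fold, 3 were lower: Comp (6.08 and 0.580 FPKM), Lect1 (5.54 and 0.517 FPKM) and Sox9 (3.17 and 0.960 FPKM). The 2 higher were Hapln1 (1.05 and 26.5 FPKM) and Matn3 (0.103 and 1.88 FPKM). Comp, Lect1 and Sox9 reached 1 FPKM in control alone and Matn3 in the knockout-labelled library alone. Their direction was therefore fixed by the minimum. Acan, a proteoglycan of cartilage, was under 1 FPKM in both libraries.

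Among basement membrane chains 5 of 8 were lower by at least 2-fold. They had a median difference of -1.47 over all 8 and -1.61 over the 6 at 1 FPKM or more. Col4a1 and Col4a2, which together form the common type IV collagen of vessels, were 251 and 169 FPKM in control and 78.8 and 56.0 FPKM in the knockout-labelled library. They were 3.18-fold and 3.01-fold lower, and the level of Col4a1 was 1.49 times that of Col4a2 in control and 1.41 times in the other library. This pair of genes is arranged head to head, and on GRCm38.p6 the annotated starts lie 21 bases apart. The exons of the pair overlap by 22 bases on opposite strands, under 1% of the exon bases of either gene.

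The other type IV chains were scarce. Col4a5 and Col4a6, a second head-to-head pair with starts 1343 bases apart, were 8.71 and 1.46 FPKM in control and 1.92 and 0.236 FPKM in the knockout-labelled library. Col4a5 was 4.55-fold lower. Col4a6 was 6.19-fold lower as a ratio, with a wide interval of 3.45 to 11.5, and its difference of -0.99 lay just short of 2-fold. Col4a3 and Col4a4, the chains of the kidney filter, were at 0.0456 and 0 FPKM in control and both were listed at 0 in the knockout-labelled library.

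Col18a1 and Col15a1 encode related proteoglycans of basement membranes, whose C-terminal fragments are known as endostatin and restin, and they differed by unlike amounts. Col18a1 was 148 and 56.2 FPKM, 2.63-fold lower (interval 2.52 to 2.74). Col15a1 was 40.3 and 6.56 FPKM, 6.15-fold lower (interval 5.45 to 6.98). The intervals do not overlap. The level of Col18a1 was 3.66 times that of Col15a1 in control and 8.57 times in the knockout-labelled library, so the order of the chains was the same and the distance greater.

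Among the 25 other chains, 14 were at least 2-fold lower and none at least 2-fold higher, and the median difference was -1.36 over all 25. Over the 19 at 1 FPKM or more, 6 of them at that level in control alone, it was -1.56, or -0.80 with a pseudocount of 5, which is short of 2-fold. Type VI collagen forms beaded filaments near cells, and its 3 main chains were close to each other. Col6a1 was 188 and 49.2 FPKM, Col6a2 153 and 51.0 FPKM, and Col6a3 122 and 41.3 FPKM, which made them 3.83-fold, 3.00-fold and 2.96-fold lower. The ratio of Col6a1 to Col6a2 was 1.23 in control and 0.965 in the knockout-labelled library. Col6a6, a further chain of this type, was 16.1 and 1.79 FPKM, 8.99-fold lower (interval 7.56 to 10.8). Its relatives Col6a5 and Col6a4 stayed under 1 FPKM, at 0.453 and 0.0530 in control.

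Chains that attach to the surface of fibrils, called FACIT collagens, were lower by varied amounts. Col14a1, a chain of dense dermis and tendon, was 96.6 and 16.1 FPKM, 6.01-fold lower (interval 5.61 to 6.45). Col12a1, its close relative, was 62.4 and 17.05 FPKM, 3.66-fold lower (interval 3.48 to 3.86). The level of Col14a1 was 1.55 times that of Col12a1 in control and 0.943 times in the knockout-labelled library, where the levels of the pair were close. Col16a1 was 23.4 and 6.75 FPKM. All 3 chains of type IX collagen, a FACIT collagen of cartilage and eye, were at least 2-fold lower: Col9a1 was 5.89 and 0.373 FPKM, Col9a2 3.22 and 0.212 FPKM, and Col9a3 5.91 and 1.26 FPKM. Col9a1 and Col9a2 reached 1 FPKM in control alone, so their direction was fixed by the minimum. The ratio of Col9a1 was the largest of any member with a value in both libraries, 15.8-fold lower, but it rests on about 12.3 fragments in the knockout-labelled library and has an interval of 9.08 to 31.8. Col19a1 was 1.12 and 0.861 FPKM, with an interval for its fold of 0.814 to 2.11, and Col20a1 and Col22a1 were under 1 FPKM in both libraries.

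Of the network-forming chains, Col8a1, a chain of vessel walls and corneal endothelium, was 8.49 and 1.59 FPKM, and Col8a2 was 2.10 and 0.210 FPKM. Both were at least 2-fold lower, but Col8a2 reached 1 FPKM in control alone, so its direction was fixed by the minimum. Col10a1, the chain of hypertrophic cartilage, was listed at 0 in both libraries.

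Transmembrane chains had a median difference of -0.85, the nearest to 0 of the classes of chains described here. Col7a1, which forms the anchoring fibrils that hold epidermis to dermis, was 8.22 and 5.08 FPKM, 1.62-fold lower (interval 1.43 to 1.83). Col17a1, a transmembrane chain of basal keratinocytes, was 6.24 and 1.62 FPKM, 3.84-fold lower. Of the 4 transmembrane chains (types 13, 17, 23 and 25), Col17a1 alone was at least 2-fold lower on the scale of log2(FPKM + 1) before rescaling. As a plain ratio Col13a1 was 9.48-fold lower, with a wide interval of 3.16 to 51.1. Col23a1 was 7.89 and 4.16 FPKM, Col25a1 1.73 and 0.894 FPKM, and Col13a1 1.11 and 0.117 FPKM, with differences of -0.78, -0.53 and -0.92. Rescaled to the same sum, Col23a1 and Col13a1 passed 2-fold as well, at -1.17 and -1.59. Col13a1 and Col4a6 also passed 2-fold with a pseudocount of 0.1. Col26a1 was 8.75 and 3.23 FPKM, and Col28a1, known from Schwann cells of nerve, was 0.955 and 0.134 FPKM.

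The size of the fold varied with the level of the chain in control, which is itself part of the ratio. The 10 chains at 100 FPKM or more in control were lower by 1.85-fold to 5.30-fold, with a median of 3.09. The 8 chains between 10 and 100 FPKM were lower by 3.46-fold to 9.76-fold, with a median of 6.08, and all 8 passed 2-fold. The 17 chains between 1 and 10 FPKM spanned ratios of 0.943 to 15.8, with a median of 4.55. Of these 17, 8 reached 1 FPKM in control alone, so their direction was fixed by the minimum. The lowest of the 17 rest on few fragments, Col13a1 on about 3.14 in the knockout-labelled library.

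While the total was lower, the share of each of the 3 groups in the collagen sum differed by less than 2 percentage points between the libraries. Fibrillar chains were 68.2% of the summed collagen FPKM in control and 67.3% in the knockout-labelled library, basement membrane chains 14.6% and 16.2%, and other chains 17.2% and 16.5%. Col3a1 alone was 35.1% and 31.7%. Col1a1 had the greatest gain in share, from 6.35% to 11.8%. Col5a2 went from 5.20% to 3.35% and Col14a1 from 2.29% to 1.3%. These shares, like the ratios of chains, are not changed by any scaling between the libraries.

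**Figure D3:**
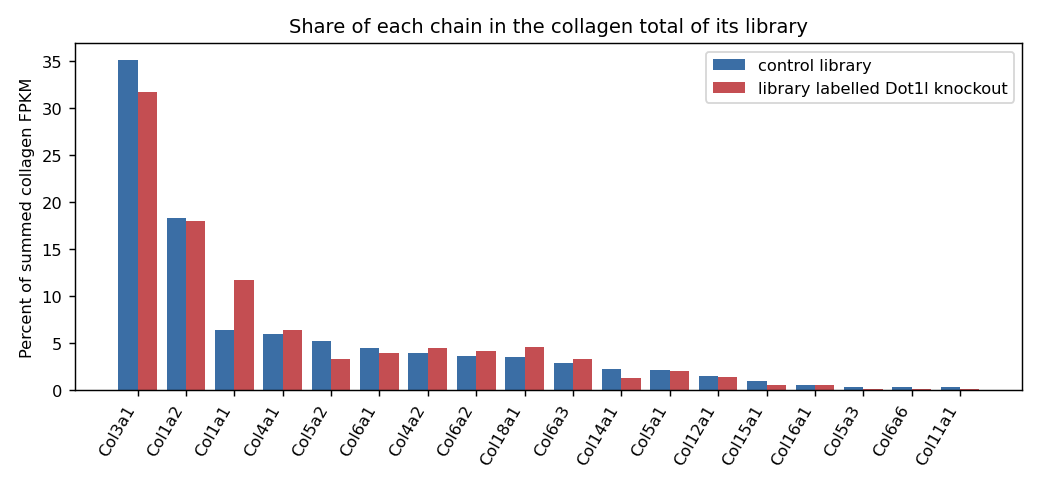
Percent of the summed collagen FPKM (vertical axis) taken by each of the 18 chains at 10 FPKM or more in control, in the control library (blue) and the knockout-labelled library (red), with 1 library per bar. Col1a1 has the greatest gain, from 6.35% to 11.8%, and Col4a1, Col4a2, Col6a2, Col18a1 and Col6a3 also have a higher share in the knockout-labelled library. All other chains shown have a lower share there, Col3a1 with 31.7% against 35.1% in control.

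Genes that modify, process or bind collagen were more often lower than higher in the knockout-labelled library. A list of 63 symbols, older synonyms included, matched 56 genes for the modification, folding, processing, crosslinking and binding of collagen. Of these, 25 were at least 2-fold lower in the knockout-labelled library and 2 at least 2-fold higher, and the median difference of the 46 at 1 FPKM or more was -1.03.

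Inside the cell, all 14 genes of hydroxylation and glycosylation were at 1 FPKM or more, and 7 were at least 2-fold lower. Of 14 genes of folding and export, 12 were at that level, 5 of them at least 2-fold lower and 1 higher. Serpinh1, the collagen chaperone HSP47, was 448 and 118 FPKM, 3.80-fold lower. The prolyl 3-hydroxylase P3h1 and its partner Crtap were 24.8 and 64.5 FPKM in control and 6.85 and 24.9 in the knockout-labelled library, but Ppib, the cyclophilin of the same complex, was 650 and 533 FPKM. Their relatives P3h3 and P3h4 were 34.5 and 19.8 FPKM in control and 14.8 and 6.49 in the knockout-labelled library. Plod2, the hydroxylase of telopeptide lysines, was 20.2 and 7.05 FPKM, whereas Plod1 was 49.8 and 64.3 FPKM. Prolyl 4-hydroxylase, which stabilises the helix, was not lower by 2-fold in its main subunits: P4ha1 was 58.2 and 54.4 FPKM, and P4hb, also known as protein disulfide isomerase, 444 and 596 FPKM. The immunophilins Fkbp10, Fkbp14 and Fkbp7 were 41.4, 33.8 and 62.0 FPKM in control and 14.4, 11.3 and 18.5 in the knockout-labelled library. Sparc, a secreted collagen-binding protein, was 1002 and 263 FPKM. Creb3l1, a transcription factor that activates type I collagen genes in bone, was higher, at 9.49 and 49.7 FPKM, 5.24-fold.

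Outside the cell, 5 of 10 genes of propeptide removal were at least 2-fold lower, and the other 5 stayed under 1 FPKM in both libraries, among them Adamts3 at 0.624 and 0.912 FPKM. Pcolce, which enhances the C-propeptide cleavage of fibrillar collagen, was 57.3 and 7.42 FPKM, 7.72-fold lower and the most negative difference of the whole list. The C-proteinases Bmp1 and Tll1 were 25.5 and 10.4 FPKM in control and 6.17 and 2.98 in the knockout-labelled library, and the N-proteinase Adamts2 was 10.1 and 2.69 FPKM. Of the crosslinking enzymes, Lox was 79.0 and 19.99 FPKM, Loxl1 9.18 and 1.55 FPKM, and Pxdn, which links type IV collagen through sulfilimine bonds, 68.7 and 15.1 FPKM. Loxl2 was 55.8 and 45.3 FPKM and did not reach 2-fold.

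Of 12 receptor and uptake genes, 9 were at 1 FPKM or more, 5 of them at least 2-fold lower and 1 higher. Itga1, whose integrin binds type IV collagen, was 20.3 and 3.94 FPKM, and Ddr2, a kinase receptor for fibrillar collagen, 27.6 and 6.83 FPKM. Itga2, whose integrin binds type I collagen, was higher in value, at 15.9 and 31.2 FPKM, a difference of 0.93 that fell short of 2-fold. The shared subunit Itgb1 was 298 and 257 FPKM. Cd93, an endothelial surface protein that was on the list, was 79.6 and 36.7 FPKM. Lair1, an inhibitory collagen receptor of leukocytes, was 0.269 and 1.67 FPKM and was the other gene at least 2-fold higher. It reached 1 FPKM in the knockout-labelled library alone, so its direction was fixed by the minimum.

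**Figure D4:**
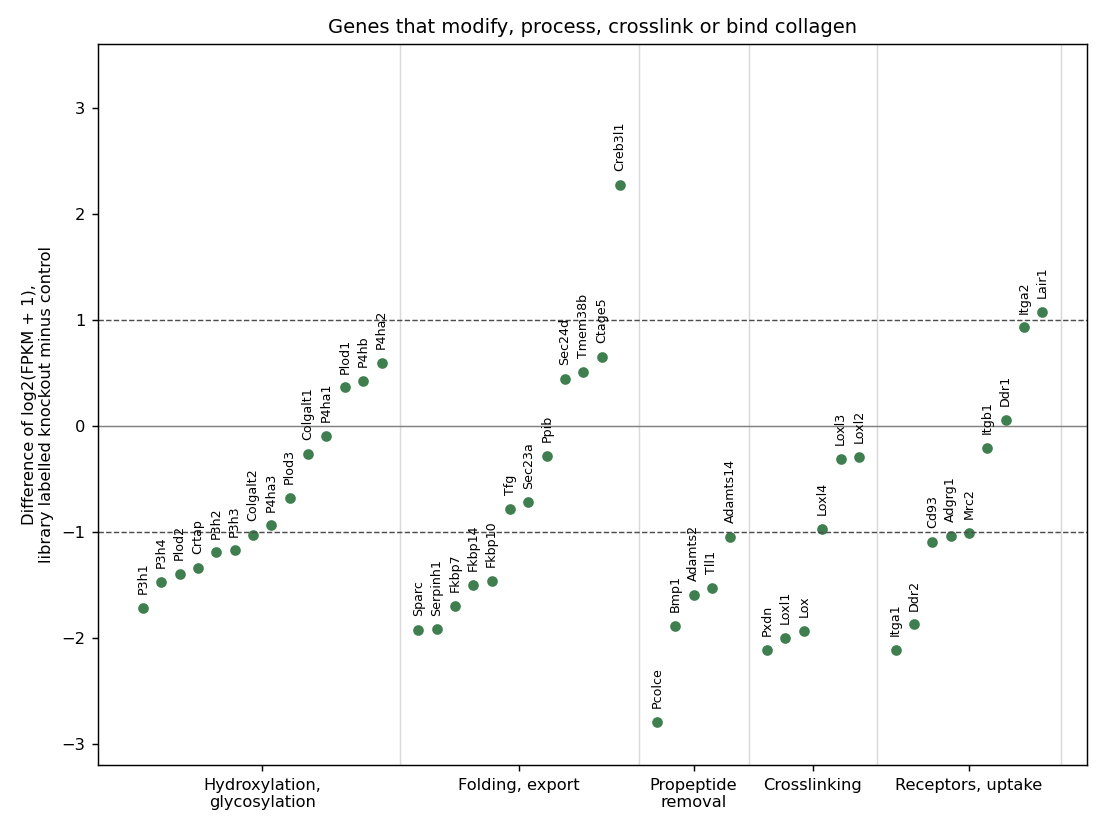
Difference of log2(FPKM + 1), knockout-labelled library minus control (vertical axis), for the 46 genes of collagen modification, folding, processing, crosslinking and binding at 1 FPKM or more, in columns by role, 1 point per gene, with 2-fold as dashed lines. The 5 propeptide genes at that level lie below the lower dashed line, while Creb3l1 and Lair1 lie above the upper one.

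Markers of several cell types moved with the collagen chains. All 10 fibroblast markers that are not collagens were at least 2-fold lower in the knockout-labelled library, with a summed level that went from 1919 to 273 FPKM, and none was at 0 in either library. All 10 pericyte and smooth muscle markers (summed level 207 and 32.2 FPKM) and all 10 pan-endothelial markers (1253 and 261 FPKM) were at least 2-fold lower as well. The medians of these lists were -2.32, -2.56 and -2.42, and the summed levels differed by 7.04-fold, 6.43-fold and 4.81-fold, beside 3.42-fold for the collagen sum. Of 8 keratinocyte markers 5 were at least 2-fold lower (180 and 79.9 FPKM). All 6 adipocyte markers were at least 2-fold lower (1992 and 340 FPKM). All 10 macrophage markers were at least 2-fold higher, with a summed level of 41.5 FPKM in control, where C1qc was at 0, and 2813 in the knockout-labelled library. All 8 mast cell markers were higher too, from 104 to 12933 FPKM, with Fcer1a at 0 in control. At least 2-fold lower too were 4 of 8 Schwann cell and melanocyte markers and 3 of 7 skeletal muscle markers. Of the macrophage and mast cell markers, 6 and 2 reached 1 FPKM in the knockout-labelled library alone, so their direction was fixed by the minimum. Likewise 1 fibroblast, 1 pericyte and smooth muscle, 3 adipocyte, 2 Schwann cell and melanocyte and 3 skeletal muscle markers reached it in control alone. The part of these cell types in the collagen values was not tested.

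**Figure D5:**
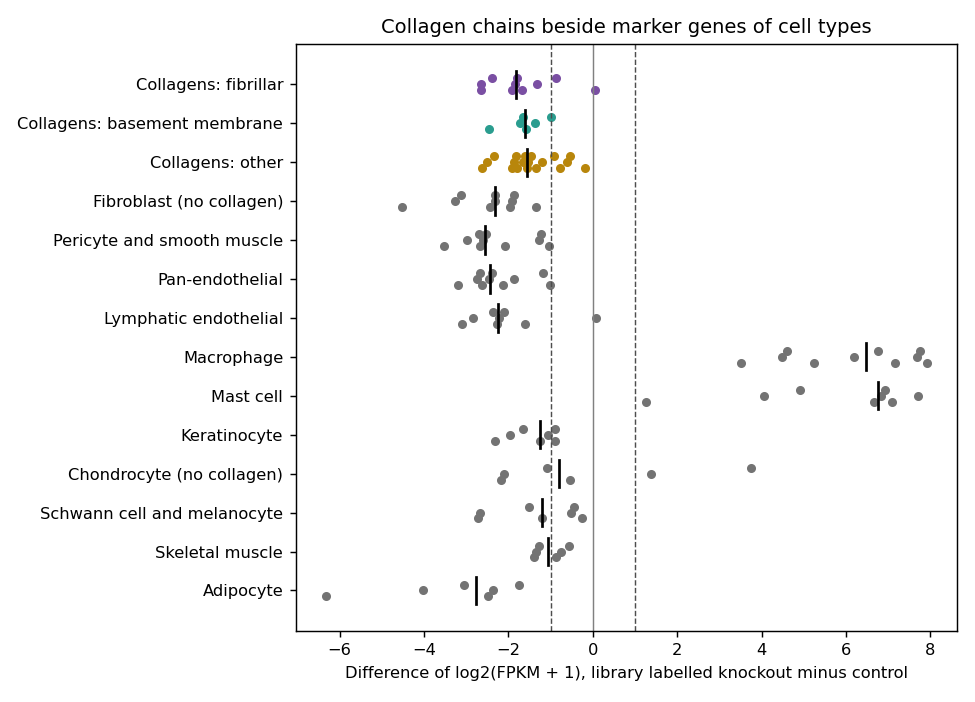
Difference of log2(FPKM + 1), knockout-labelled library minus control (horizontal axis), for the collagen chains (coloured) and for marker genes of cell types (grey) at 1 FPKM or more, 1 point per gene, medians as vertical bars and 2-fold as dashed lines. Medians of the collagen groups (-1.81, -1.61 and -1.56) lie on the same side as those of fibroblast, pericyte and endothelial markers, and macrophage and mast cell markers lie on the other side.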

How the data were processed

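RNA of skin LECs was sequenced in 2 libraries, 1 per genotype, each from pooled RNA with an integrity number above 7.0 and made with the ScriptSeq v2 kit, per the labels' protocols. The deposited values were taken as FPKM, because STAR 2.5.2b, Cufflinks 2.2.1, Cuffnorm, R 3.3.2 and build mm9 are named in the submitters' processing notes and the values are decimal and do not sum to 1000000. For the role of each tool, the annotation, the use of strand and scaling between libraries, nothing is given in the sources used here.

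From the authors' FPKM, differences of log2(FPKM + 1) were computed with a minimum of 1 FPKM in at least 1 library and a 2-fold call, in Python 3.11.15 with pandas 2.3.3 and numpy 2.4.6. The code was tested on simulated data. With 1 library per genotype no replicate test exists. Every chain at 10 FPKM or more in either library is described in full and chains from 1 to 10 FPKM in brief. Chains under 1 FPKM in both are counted, and those named without being partners of a described chain (Col2a1, Col6a4, Col6a5, Col10a1, Col20a1, Col22a1, Col28a1) were chosen after their values were seen. Helper genes named are those at 10 FPKM or more that passed 2-fold and a fixed set of enzymes and receptors, and Ppib, Plod1, Loxl1, Loxl2, Adamts3 and Lair1 were chosen after their values were seen. The members and lists were chosen with earlier results of these data known.

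Depth was estimated from values of up to 5 fragments in genes with 1 annotated transcript of at least 2500 nt (GENCODE M21), with an assumed fragment length of 200 nt. At the best of 500 steps 83.0% of 159 values in control and 76.0% of 175 in the knockout-labelled library were whole to within 0.1, and at steps over 10% away at most 39.6% and 39.5% did. Steps that left fewer than 20% of values at 1 fragment were not considered. Fragments per chain use the longest coding transcript. That annotation and the RefSeq start windows are on GRCm38, not mm9, and no coordinate was converted. Of the chains at 1 FPKM or more, Col9a3 shares the largest part of its exon bases with a gene on the opposite strand, 6.07% with Tcfl5.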

Additional observations from a re-analysis of the deposited data

How the results depend on the processing

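No paired analysis was possible because there is a single library for either genotype. For the same reason no library could be omitted. The count of 27 chains at least 2-fold lower ranged from 19 to 32 over the alternatives tried, and none was at least 2-fold higher in any. The alternatives were pseudocounts of 0.1 and 5, the same sum, the same upper quartile, a median difference of 0, no minimum, a mean of 1 FPKM, a minimum of 5 FPKM, and calls at 1.5-fold and 3-fold. The median of the other chains fell short of 2-fold with a pseudocount of 5, at -0.80. Of the helper and receptor genes, the count of 2 higher genes went to 1 with a pseudocount of 5, with the same upper quartile, with a mean of 1 FPKM, with a minimum of 5 FPKM and at 3-fold, and 5 at 1.5-fold. The 25 lower became 12 at 3-fold. Rescaling to the same sum moved the median of all genes to -0.33, and rescaling to the same upper quartile to -0.11. All 35 chains at 1 FPKM or more were then below 0, and 31 and 29 of them were at least 2-fold lower. Col1a1 then passed 2-fold, at -1.23 and -1.01, against -0.88 as deposited. Depth limits the chains under 1 FPKM, where Col4a3 and Col6a4 rest on about 3.90 and 3.89 fragments in control.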

Other observations

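Genes outside the collagen family whose products carry a collagen-like stretch were divided between the libraries. These 30 genes were listed after values of these data had been seen, so their counts support nothing. By at least 2-fold, 8 were higher and 8 lower in the knockout-labelled library. The chains of complement C1q, C1qa and C1qb, were 1.01 and 0.344 FPKM in control and 429 and 327 in the knockout-labelled library, and C1qc was listed at 0 in control and was 203 in the other. The scavenger receptor Msr1 was 0.224 and 81.5 FPKM, its relative Marco was listed at 0 and was 81.6, and the ficolin Fcna was 0.0877 and 165 FPKM. Colec12, a collectin of endothelium, was 61.2 and 174 FPKM, and Emilin2 29.5 and 133 FPKM. The adipocyte hormone Adipoq was 30.2 and 0.926 FPKM, Scara5, a ferritin receptor, 11.96 and 0.376 FPKM, C1qtnf3 33.7 and 3.48 FPKM, and Cthrc1, a secreted protein of activated fibroblasts, 43.5 and 5.83 FPKM. The genes for C1q, Msr1, Marco and Fcna are expressed by macrophages. All 10 macrophage markers were higher by at least 2-fold in the same library, but C1qa, C1qb and C1qc are 3 of those 10, so for C1q the list restates the same values. The part of those cells in these values was not tested.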
